A study of Mus musculus with 8 samples.

Results

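Potassium channels are membrane proteins that let potassium leave or enter a cell and so set its resting voltage, its firing and the clearance of potassium around it. The array carried 94 genes of this kind, out of 22405 genes, on 144 of its 39429 probes. They were taken by symbol, as every non-control probe whose gene name begins with Kcn and a further letter, without Kcnj10. Names beginning with Kcn cover pore-forming subunits and the auxiliary subunits that bind them, with 1 non-coding RNA (Kcnq1ot1) and 1 regulator (Kcnrg) named in the same way.

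The pore-forming subunits fall into families of different build. Two-pore channels (Kcnk) carry leak current that is open at rest and holds neurons and glia at a negative voltage. Inward rectifiers (Kcnj) pass potassium more easily into the cell than out of it, and include the channels opened by G proteins and by a fall in ATP. Calcium- and sodium-activated channels (Kcnma1, Kcnn, Kcnt) open after calcium or sodium entry and shape the pause after a spike, and they are counted here with the Kcnmb beta subunits of Kcnma1 and with Kcnu1, a sperm channel related to Kcnma1 that is opened by alkaline pH. Voltage-gated channels (Kcna, Kcnb, Kcnc, Kcnd, Kcnh, Kcnq and silent partners such as Kcnf) repolarise the action potential, and auxiliary subunits (Kcnab, Kcne, Kcnip) change how these gate and reach the membrane.

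Whole brains of mice that had been fasted for 17 h were set against whole brains of mice fed over the same 17 h, with 4 arrays of each, and each array was a single-colour hybridisation of 1 sample. No strain, age, sex or genotype is given in the sources used here, and nothing in the labels states whether the samples of a group came from separate animals, so p-values measure only the spread between these samples. Bulk RNA from a whole brain mixes regions and cell types, and fewer cells of a type cannot be told apart from less RNA per cell. All 5 neuronal marker genes, including Snap25 and Syt1, were measured, and 0 of the 5 passed the limma test in either direction, against 20.5% of all genes. At an unadjusted p under 0.05, 1 was higher, against 35.3% of all genes in either direction. Their median log2 difference, fasted minus fed, was 0.09. Whether the neuronal share of the RNA changed was not tested.

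Between 62.3% and 69.0% of probes were well above background on each array, the 75th percentile of the signal lay between 1651 and 1944 intensity units, no spot was saturated, and arrays correlated at 0.992 or more. Each slide held 2 fasted and 2 fed arrays. Fasted samples sat at positions 1 and 3 of both slides and fed samples at positions 2 and 4, so position and fasting cannot be told apart.

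A level is given below as the scaled log2 signal, which is the log2 intensity minus the array's 75th percentile. A difference is the fasted minus the fed mean on this scale, and it passed the test when limma's Benjamini-Hochberg adjusted p over all 16108 tested genes was under 0.05. A gene was tested when a probe of it was well above background on at least 4 of the 8 arrays, and the brightest such probe stood for the gene. Of the 94 genes, 79 were tested.

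Among the 79 tested potassium channel genes, 16 passed the test (20.3%), against 20.5% of all tested genes (3310 of 16108). Of these 16, 5 were higher in fasted brains and 11 were lower. Of the 3310 genes that passed over all genes, 1702 were higher and 1608 lower (10.6% and 9.98% of all tested genes). With each array's median in place of its 75th percentile the split was 5 higher and 6 lower (1507 and 1053 over all genes). After normexp background correction with quantile normalization it was 7 higher and 7 lower (1274 and 1166 over all genes). The median difference of the 79 genes was -0.03, against -0.01 for all genes, and the median size of a difference regardless of sign was 0.12, against 0.09. The share that passed in this set was therefore close to that of all genes, and what follows concerns which channels moved. All 16 differences were small, at most 1.45-fold. In 18 of the 79 genes the fasted and fed arrays did not overlap (26.9% of all genes had such a separation), and 15 of the 16 genes that passed were among the 18.

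**Figure D1:**
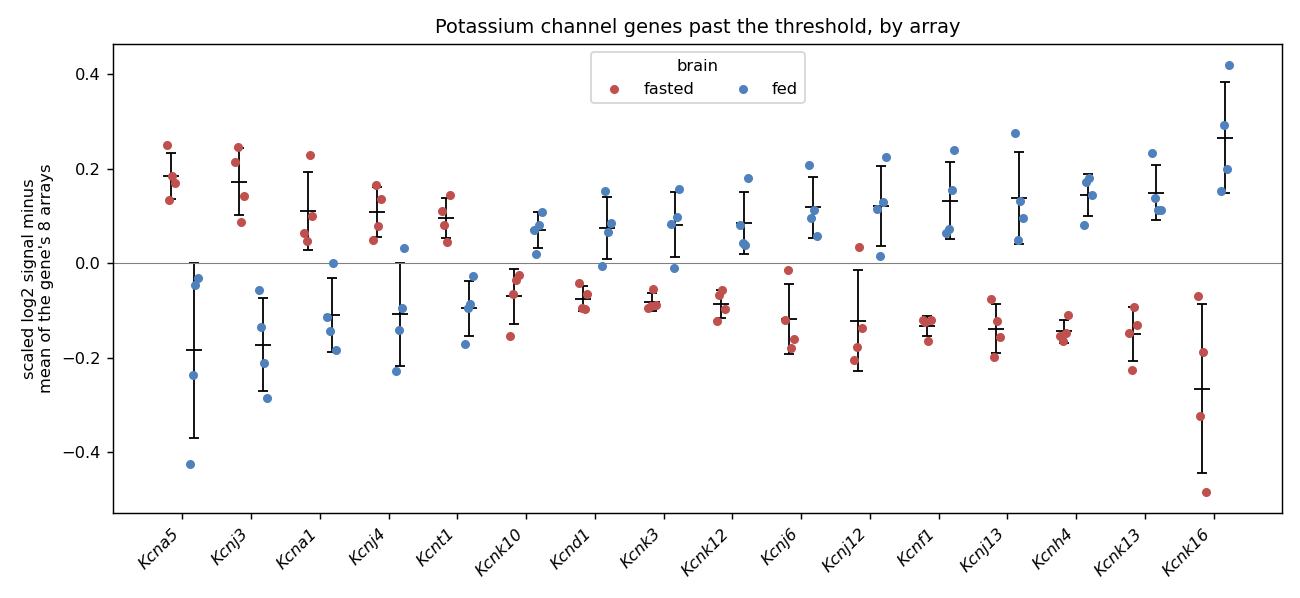
Scaled log2 signal of the 16 potassium channel genes that passed the test, minus each gene's mean over the 8 arrays, with fasted brains left of fed brains. Points are arrays and bars are the mean and SD of 4 arrays. Kcna5, Kcnj3, Kcna1, Kcnj4 and Kcnt1 sit higher in fasted brains, the other 11 sit lower, and only in Kcnj12 do the groups overlap.

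Probes are 60 bases long and report 1 short stretch of a transcript each, so where a gene had several the sequences decide what was measured. The probes of the genes on which the results turn are printed here as the array design gives them, with its mm9 position and strand in brackets. Whether each lies in an exon or an intron was not analysed here. Kcnk13 and Kcnk12 each had 1 probe. Kcnj13 had 2 that moved alike, while Kcnj3, Kcna5, Kcnt1 and Kcnd1 had probes of opposite sign.
Kcnk13, chr12:101300491-101300550 (+): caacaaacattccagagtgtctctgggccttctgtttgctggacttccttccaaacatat
Kcnk12, chr17:88145628-88145687 (-): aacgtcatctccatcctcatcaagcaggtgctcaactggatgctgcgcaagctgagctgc
Kcnj13, probe used, chr1:89282859-89282918 (-): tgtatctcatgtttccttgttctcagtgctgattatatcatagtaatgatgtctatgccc
Kcnj13, other probe, chr1:89282991-89283050 (-): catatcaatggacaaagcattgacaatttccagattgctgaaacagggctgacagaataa
Kcnj6, chr16:95053973-95054032 (-): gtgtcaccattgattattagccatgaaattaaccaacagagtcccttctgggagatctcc
Kcnj3, probe used, chr2:55290214-55290273 (+): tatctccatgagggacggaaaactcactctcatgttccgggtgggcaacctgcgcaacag
Kcnj3, other probe, chr2:55447862-55447921 (+): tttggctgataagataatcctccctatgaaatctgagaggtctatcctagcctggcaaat
Kcna5, probe used, chr6:126482573-126482632 (-): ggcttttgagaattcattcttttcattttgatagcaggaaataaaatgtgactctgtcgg
Kcna5, other probe, chr6:126483373-126483432 (-): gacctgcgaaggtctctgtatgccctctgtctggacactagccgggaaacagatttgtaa
Kcnt1, probe used, chr2:25773734-25773793 (+): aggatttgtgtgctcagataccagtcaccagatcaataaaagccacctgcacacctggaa
Kcnt1, other probe, chr2:25750629-25750688 (+): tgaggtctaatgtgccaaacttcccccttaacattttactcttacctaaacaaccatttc
Kcnd1, probe used, chrX:7413570-7413629 (+): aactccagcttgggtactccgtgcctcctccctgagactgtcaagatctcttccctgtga
Kcnd1, second probe, chrX:7415303-7415362 (+): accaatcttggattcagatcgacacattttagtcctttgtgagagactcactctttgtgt
Kcnd1, other probe, chrX:7400644-7400703 (+): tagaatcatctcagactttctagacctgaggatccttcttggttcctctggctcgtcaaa

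The two-pore leak channels were the family with the most genes lower in fasted brains. Of 14 on the array 11 were tested, 5 of the 11 were lower (45.5%, against 9.98% of all genes) and 0 were higher by limma's test (0 also at an unadjusted p under 0.05, where 7 were lower). The 5 were Kcnk16, Kcnk13, Kcnk12, Kcnk3 and Kcnk10. The family's median difference was -0.16, and it was -0.16 within the first slide and -0.20 within the second. Differences of 10 of the 11 genes were negative (52.4% of all genes had a negative difference), with the same count after median scaling, quantile normalization and normexp. The count was 9 of 11 with the mean of all kept probes, within the first slide, and without fasted replicate 4 or fed replicate 3. With no filter on dim probes it was 11 of 14. The number past the threshold was less stable than the median: it was 2 with median scaling, 2 with normexp, 3 with no filter on dim probes, 2 without fasted replicate 1, and 3 without fasted replicate 2, fed replicate 1 or fed replicate 3.

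Kcnk13 encodes THIK-1, a leak channel that in mouse brain is the main resting potassium channel of microglia. Its scaled log2 signal was -1.15, -1.23, -1.09 and -1.13 in the fasted brains, against -0.77, -0.86, -0.89 and -0.89 in the fed brains. Every fasted array lay below every fed array. The difference was -0.30 ± 0.04 (SE), or 1.23-fold lower (adjusted p = 0.00357), and it was -0.37 within the first slide and -0.22 within the second. Kcnk12 encodes THIK-2, the closest relative of THIK-1. It read -1.03, -0.98, -0.97 and -1.01 in fasted brains, against -0.83, -0.87, -0.87 and -0.73 in fed brains. The groups did not overlap, and Kcnk12 was 1.13-fold lower with a difference of -0.17 ± 0.04 (adjusted p = 0.0198). Its adjusted p was 0.0565 with median scaling, 0.0567 with normexp and 0.0559 without fasted replicate 1.

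Microglial marker genes were lower in the same brains. Of 5 markers, 4 passed as lower, against 9.98% of all genes. They were Tmem119 (-0.42, adjusted p = 0.00128), Aif1 (-0.54, adjusted p = 0.0105), P2ry12 (-0.43, adjusted p = 0.0315) and Csf1r (-0.17, adjusted p = 0.0365). The fractalkine receptor gene Cx3cr1 had a difference of -0.14 (adjusted p = 0.173). Their summed linear signal, each array's 75th percentile being 1, ranged from 15.95 to 18.33 in fasted brains and from 19.13 to 20.80 in fed brains. The part of microglial RNA in the Kcnk13 difference was not tested. Kcnk6, encoding the TWIK-2 channel that is also known from mouse macrophages and microglia, read -1.11, -1.19, -0.97 and -1.08 in fasted brains, against -0.99, -0.92, -0.84 and -0.97 in fed brains. Its groups overlapped and its difference was -0.16 ± 0.06 (adjusted p = 0.0807).

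Kcnk16 encodes TALK-1, an alkaline-activated channel best known from pancreatic beta cells. The probe read -3.76, -4.01, -3.87 and -4.17 in fasted brains, against -3.53, -3.39, -3.49 and -3.27 in fed brains. It was above background on all 8 arrays and its groups did not overlap. This was the most strongly changed of the 16 genes, 1.45-fold lower with a difference of -0.53 ± 0.10 (adjusted p = 0.00791). Under normexp, which adds an offset that compresses dim probes, the difference was -0.29 (adjusted p = 0.0242).

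TASK channels are leak channels closed by external acid, and TREK channels are leak channels opened by stretch and heat. Kcnk3, the acid-sensitive TASK-1, read -0.85, -0.84, -0.81 and -0.84 in fasted brains, against -0.67, -0.77, -0.66 and -0.60 in fed brains. Its groups did not overlap and its difference was -0.16 ± 0.04 (adjusted p = 0.0235), and the adjusted p was 0.0959 with median scaling, 0.0634 with normexp and 0.0504 with no filter on dim probes. Leaving out fasted replicate 1, 2 or 4, or fed replicate 1 or 3, also ended the call on Kcnk3 (adjusted p up to 0.0612). Kcnk10, the stretch-sensitive TREK-2, read -0.58, -0.49, -0.46 and -0.45 in fasted brains, against -0.35, -0.40, -0.34 and -0.31 in fed brains. Again the groups did not overlap, with a difference of -0.14 ± 0.04 (adjusted p = 0.0372). With the replicate number as a block, the adjusted p of Kcnk10 was 0.0517. Without fasted replicate 1 or 2, or fed replicate 1, 3 or 4, its call was also lost (adjusted p up to 0.0854), as it was with median scaling (0.129), normexp (0.0774) and no filter on dim probes (0.0733).

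The other TREK and TASK genes did not pass. Kcnk2 (TREK-1) had a difference of -0.13 (adjusted p = 0.17) and Kcnk4 (TRAAK) of -0.04 (adjusted p = 0.734). A dimmer second probe of Kcnk4 had the opposite sign, at 0.15 (adjusted p over probes = 0.231). Kcnk9, the acid-sensitive TASK-3, read -4.57, -4.82, -4.40 and -5.13 in fasted brains, against -4.01, -4.37, -4.15 and -4.65 in fed brains. This dim probe was well above background on 2 fasted and 3 fed arrays, and its difference was -0.43 ± 0.18 (adjusted p = 0.131; 0.0137 with the replicate block). A further probe that the array design names A930009L07Rik, and that RefSeq's accession places on Kcnk9, had a difference of 0.11 (adjusted p over probes = 0.221), so the direction of Kcnk9 is unsettled. Kcnk1 (TWIK-1), the 1 gene of the family with a positive difference, had 0.08 ± 0.04 (adjusted p = 0.193).

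RefSeq's GRCm38.p6 promoter windows, 300 bases around a gene's start, were searched on both strands for the E-box (CACGTG), the cAMP response element core (TGACG), the GC box (GGGCGG), the TATA box (TATAAA) and the CCAAT box (its 5 letters).  The windows of the THIK pair are shown because both genes were lower. Capitals mark a match.
Kcnk12, chr17:87797945-87798244 (-): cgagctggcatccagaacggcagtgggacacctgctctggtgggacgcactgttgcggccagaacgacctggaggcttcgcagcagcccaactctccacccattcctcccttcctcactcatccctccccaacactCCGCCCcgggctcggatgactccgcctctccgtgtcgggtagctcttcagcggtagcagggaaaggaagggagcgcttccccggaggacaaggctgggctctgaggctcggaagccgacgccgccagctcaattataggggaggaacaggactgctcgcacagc
Kcnk13, chr12:99964249-99964548 (+): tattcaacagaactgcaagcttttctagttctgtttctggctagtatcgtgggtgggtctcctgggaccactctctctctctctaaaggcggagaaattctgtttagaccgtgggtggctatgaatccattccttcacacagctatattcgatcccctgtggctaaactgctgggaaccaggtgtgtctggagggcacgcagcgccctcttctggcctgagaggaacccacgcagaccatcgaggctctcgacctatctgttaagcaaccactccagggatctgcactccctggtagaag
Kcnk12 holds 1 GC box and Kcnk13 none of the 5 motifs. Among 5 windows of two-pore genes that were lower, 2 held a GC box, 1 held a CCAAT box, and 0 held any of the other motifs. Kcnk10 had 2 of these 5 windows and Kcnk3 had none. Over all 94 windows of the 69 potassium channel genes listed, the GC box was found in 46.8% (35.7% of all 32851 windows), the CCAAT box in 30.9% (37.4%), the response element core in 20.2% (20.8%), the E-box in 7.45% (7.15%) and the TATA box in 5.32% (13.6%). Median GC content was 57.8% in the members' windows and 52.7% in all windows.

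**Figure D2:**
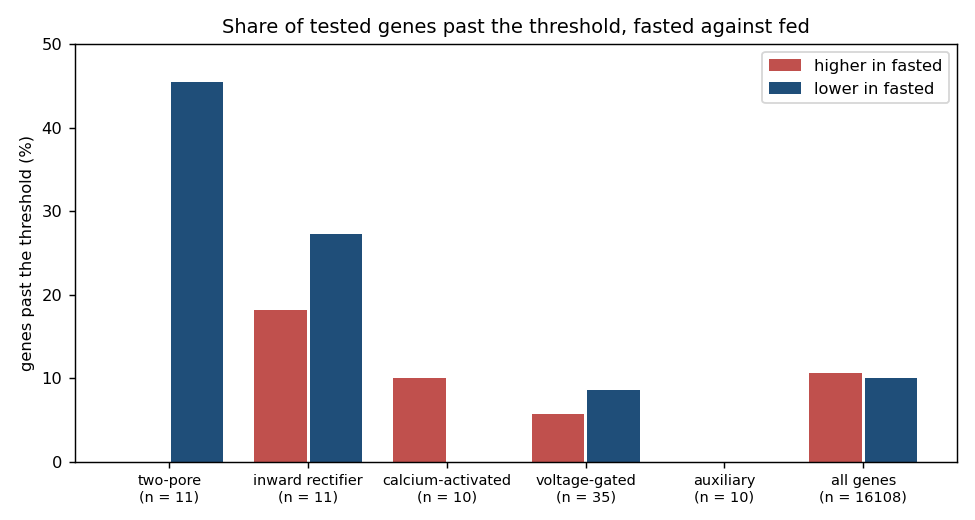
Percentage of tested genes that passed the test as higher (red) or lower (blue) in fasted than in fed brains, by channel family and for all genes; n is the number of tested genes. The two-pore family has 45.5% lower and none higher, against 9.98% and 10.6% of all genes.

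Inward rectifiers split both ways. Of 14 on the array 11 were tested, with 2 higher (Kcnj3 and Kcnj4) and 3 lower (Kcnj13, Kcnj12 and Kcnj6) in fasted brains, which is 18.2% and 27.3% against 10.6% and 9.98% of all genes. The median difference was -0.04, and it was 0.03 within the first slide and -0.10 within the second, so the family as a whole had no settled direction.

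Subunits of the G protein-gated channels, which hyperpolarise neurons after activation of inhibitory receptors, showed opposite differences on their brightest probes. Kcnj3 encodes GIRK1, the subunit shared by most neuronal channels of this kind. Its brightest probe read -1.04, -1.01, -1.17 and -1.11 in fasted brains, against -1.31, -1.39, -1.47 and -1.54 in fed brains. No fed array reached the lowest fasted array, and the difference was 0.34 ± 0.06, or 1.27-fold higher (adjusted p = 0.00624). The second Kcnj3 probe, at the other position printed above, read -2.46, -2.48, -2.53 and -2.60 in fasted brains, against -2.51, -2.29, -2.39 and -2.29 in fed brains, with a difference of -0.15 (adjusted p over probes = 0.127). With the mean of both probes, Kcnj3 had a difference of 0.10 (adjusted p = 0.118), so the higher level was read by 1 of the 2 probes.

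Kcnj6 encodes GIRK2, the partner of GIRK1. It read -2.95, -2.84, -3.01 and -2.99 in fasted brains, against -2.62, -2.73, -2.71 and -2.77 in fed brains. Its groups did not overlap, and Kcnj6 was 1.18-fold lower with a difference of -0.24 ± 0.05 (adjusted p = 0.0131), or -0.14 under normexp (adjusted p = 0.0466). Kcnj9 (GIRK3) had a difference of -0.09 (adjusted p = 0.363) and Kcnj5 (GIRK4) of 0.05 (adjusted p = 0.76).

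Strong inward rectifiers of the Kir2 group, which hold the resting voltage, also differed in sign. Kcnj4 (Kir2.3) read 3.70, 3.82, 3.73 and 3.79 in fasted brains, against 3.43, 3.51, 3.56 and 3.69 in fed brains. The highest fed array lay just below the lowest fasted one, and the difference was 0.22 ± 0.06 (adjusted p = 0.0338). Kcnj12 (Kir2.2) read -0.72, -0.69, -0.48 and -0.65 in fasted brains, against -0.40, -0.49, -0.38 and -0.29 in fed brains. Here 1 fasted array lay inside the fed range, and the difference was -0.24 ± 0.06 (adjusted p = 0.0322). Kcnj4 passed without fed replicate 4 but not without any of the other 7 arrays, its adjusted p reaching 0.0845 without fasted replicate 2. Kcnj12 passed without fasted replicate 3 or fed replicate 2 but not without any of the other 6 arrays, its adjusted p reaching 0.0824 without fasted replicate 1. The Kcnj12 call was also lost with median scaling (adjusted p = 0.0809), no filter on dim probes (0.0630) and normexp (0.0518), and the Kcnj4 call with no filter (0.0661). Kcnj2 (Kir2.1) had a difference of 0.05 (adjusted p = 0.833).

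Kcnj13 encodes Kir7.1, an inward rectifier of epithelia that in brain is known from the choroid plexus. The probe used read -0.16, -0.28, -0.21 and -0.24 in fasted brains, against 0.19, -0.04, 0.05 and 0.01 in fed brains. The other probe read -0.33, -0.33, -0.30 and -0.25 in fasted brains, against 0.15, 0.01, 0.00 and 0.09 in fed brains. Both separated the groups, with a difference of -0.28 ± 0.05 for the first (adjusted p = 0.0106) and of -0.36 ± 0.04 for the second (adjusted p over probes = 0.00251). Of 7 choroid plexus markers 0 were lower by limma's test and 1, Clic6, was higher (0.33, adjusted p = 0.00742), against 9.98% and 10.6% of all genes. At an unadjusted p under 0.05, 0 were lower and 2 higher, against 35.3% of all genes in either direction. The transthyretin gene Ttr had a difference of -0.05 (adjusted p = 0.572). Their summed signal ranged from 36.7 to 40.6 in fasted brains and from 37.0 to 42.0 in fed brains. Most of that sum was the signal of Ttr. The part of choroid plexus RNA in the Kcnj13 difference was not tested.

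The ATP-sensitive pair, which closes when a cell is well supplied with energy, did not pass. Kcnj11 (Kir6.2), its main neuronal pore, read -1.72, -1.62, -1.54 and -1.64 in fasted brains, against -1.74, -1.73, -1.72 and -1.89 in fed brains. The lowest fasted array lay just inside the fed range, and the difference was 0.14 ± 0.05 (95% confidence interval 0.02 to 0.26, adjusted p = 0.0993). A second probe of Kcnj11 had 0.20 ± 0.06 (adjusted p over probes = 0.0645). Kcnj8 (Kir6.1), the pore found in pericytes and vascular muscle, had a difference of -0.04 ± 0.11 (adjusted p = 0.821). Of 5 mural cell markers 1 was higher and 2 were lower, against 10.6% and 9.98% of all genes. Their summed signal was 5.61 to 5.99 in fasted brains and 6.19 to 6.46 in fed brains. Kcnj16 (Kir5.1), which pairs with the astrocytic channel subunit, had a difference of -0.12 (adjusted p = 0.159).

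**Figure D3:**
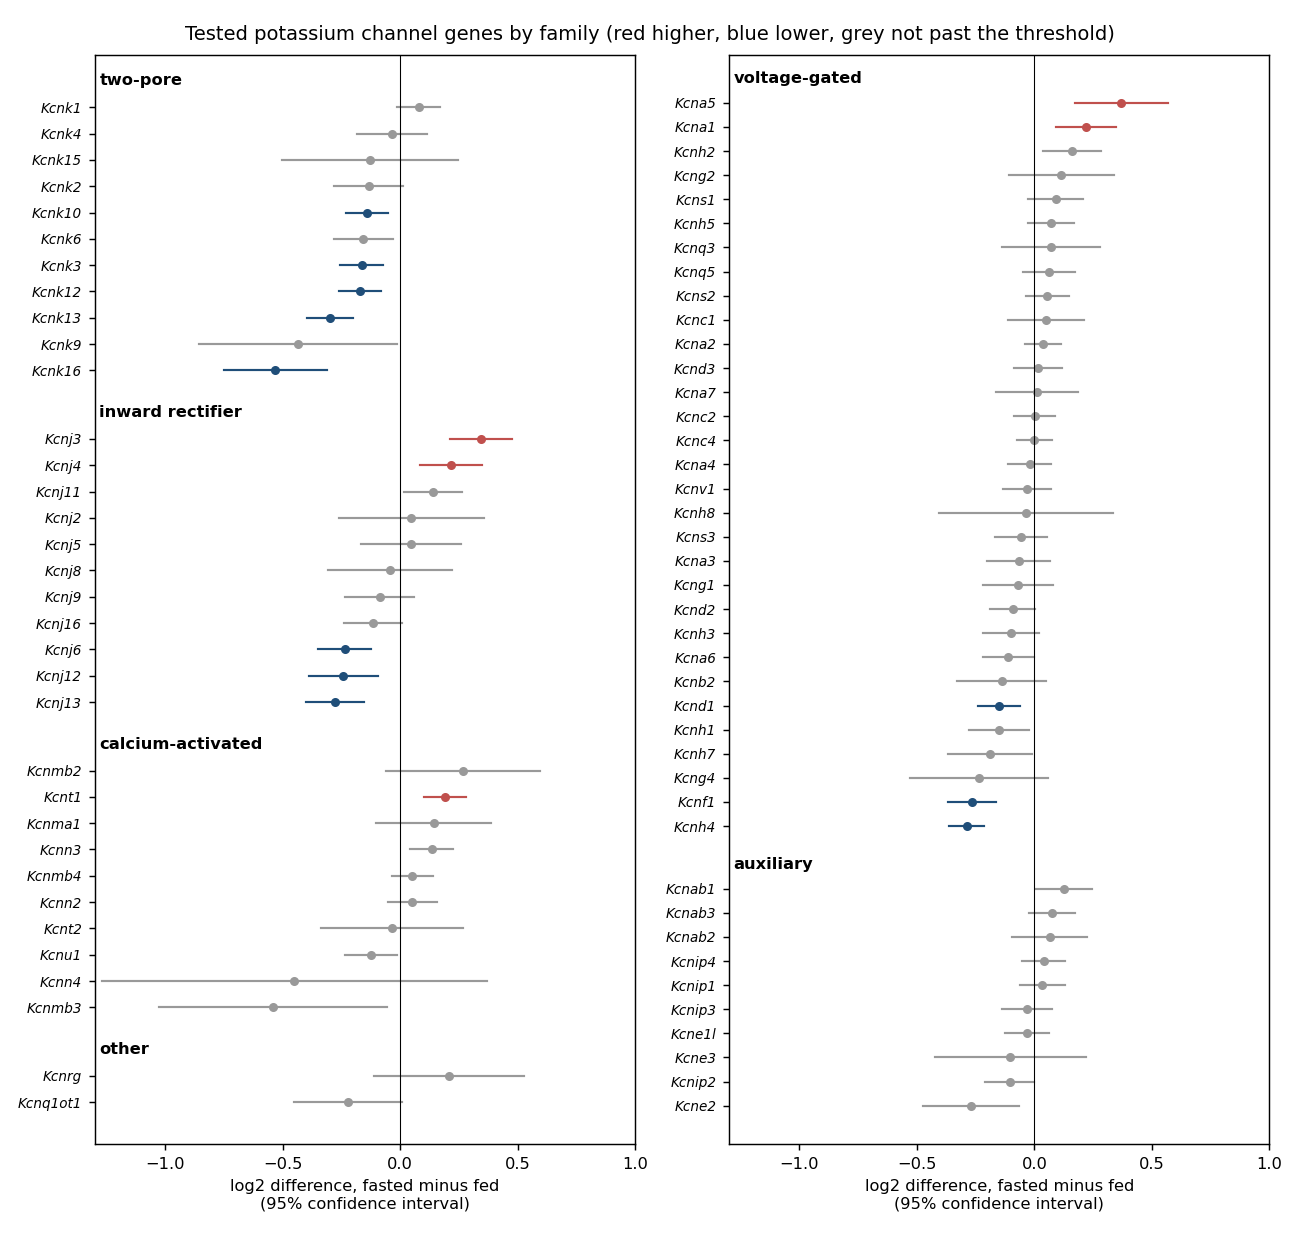
Log2 difference, fasted minus fed, of 75 of the 79 tested potassium channel genes, ordered by size within each family, with 95% confidence intervals from limma. Red and blue points passed the test as higher and lower, grey points did not. In the two-pore panel 10 of 11 points lie left of zero, while the other families spread to both sides.

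Calcium- and sodium-activated channels had 1 gene past the threshold among 10 tested, 10% higher and 0% lower, against 10.6% and 9.98% of all genes (2 genes were higher and 2 lower at an unadjusted p under 0.05). Kcnt1 encodes Slack, the sodium-activated channel that produces a slow afterhyperpolarisation. Its brightest probe read 1.28, 1.25, 1.22 and 1.32 in fasted brains, against 0.999, 1.07, 1.08 and 1.14 in fed brains. The groups did not overlap and the difference was 0.19 ± 0.04, or 1.14-fold higher (adjusted p = 0.0135). A dimmer second probe had a difference of -0.19 (adjusted p over probes = 0.286), and with the mean of both the direction was not kept (-0.00061, adjusted p = 0.995). Kcnt2, the related Slick channel, had a difference of -0.03 (adjusted p = 0.885).

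Kcnn3 encodes SK3, a small-conductance channel opened by calcium through calmodulin. It read -3.17, -3.00, -3.14 and -3.11 in fasted brains, against -3.24, -3.22, -3.24 and -3.24 in fed brains. These groups did not overlap, but the difference of 0.13 ± 0.04 fell just outside the threshold (adjusted p = 0.0509, and 0.0152 after quantile normalization). Its other kept probe had the opposite sign, as the plot by probe shows. Kcnn2 (SK2) had a difference of 0.05 (adjusted p = 0.464), and Kcnn1 (SK1) was not tested because its probe was too dim. The large-conductance pore gene Kcnma1 had a difference of 0.14 ± 0.11 (adjusted p = 0.376) and its neuronal beta subunit Kcnmb4 one of 0.05 (adjusted p = 0.363). Other kept probes of Kcnma1 had 0.07 and -0.09 (adjusted p over probes = 0.397 and 0.0858). The other Kcnmb4 probe had -0.12 (adjusted p over probes = 0.0612). The beta subunit gene Kcnmb3, well above background on 1 fasted and 3 fed arrays, had -0.54 ± 0.21 (adjusted p = 0.106).

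Voltage-gated pore subunits were the most numerous, with 40 on the array and 35 tested. Kcna5 and Kcna1 were higher in fasted brains (5.71%, against 10.6% of all genes) and Kcnh4, Kcnf1 and Kcnd1 were lower (8.57%, against 9.98%). The family's median difference was -0.02.

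Kcnh4 encodes an ELK-type channel of forebrain neurons. It read -0.81, -0.82, -0.81 and -0.77 in fasted brains, against -0.58, -0.49, -0.48 and -0.52 in fed brains. The gap between the groups was several times the SD within either, and the difference of -0.29 ± 0.03, or 1.22-fold lower, had the smallest adjusted p of the 79 genes (0.00168). Within the slides it was -0.29 on both. Of 5 striatal markers 0 passed limma's test in either direction, against 20.5% of all genes. At an unadjusted p under 0.05, 2 were lower, against 35.3% of all genes in either direction. Their summed signal was 32.0 to 34.3 in fasted brains and 31.3 to 33.4 in fed brains, most of it from the brightest markers. The part of striatal RNA in the Kcnh4 difference was not tested. Among relatives of Kcnh4, Kcnh2 (ERG1) had a difference of 0.16 (adjusted p = 0.0707) and Kcnh1 (EAG1) of -0.15 (adjusted p = 0.0941).

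Kcnf1 encodes a silent subunit that makes no channel alone and modifies Kcnb channels. It read -0.11, -0.11, -0.15 and -0.11 in fasted brains, against 0.08, 0.09, 0.17 and 0.25 in fed brains. The groups did not overlap, and the difference was -0.26 ± 0.04 (adjusted p = 0.00609). Its second probe gave -0.20 ± 0.04 (adjusted p over probes = 0.0151). The Kcnb-type gene Kcnb2 had a difference of -0.14 (adjusted p = 0.269), and the silent subunit Kcnv1 had one of -0.03 (adjusted p = 0.648).

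Shaker-type channels included both voltage-gated genes that were higher. Kcna1 (Kv1.1), the low-threshold channel of axons, read 3.11, 3.09, 3.27 and 3.14 in fasted brains, against 2.93, 2.90, 3.04 and 2.86 in fed brains. The groups did not overlap and the difference was 0.22 ± 0.05 (adjusted p = 0.0265), and the call was lost without fasted replicate 4 or fed replicates 1, 2 or 4 (adjusted p up to 0.0673), with median scaling (0.0506) and with no filter on dim probes (0.0543). Kcna5 (Kv1.5), a delayed rectifier, read -2.67, -2.79, -2.73 and -2.75 in fasted brains, against -3.34, -3.16, -2.97 and -2.95 in fed brains. The difference was 0.37 ± 0.09 (adjusted p = 0.0211), and within the slides it was 0.52 and 0.22. The other Kcna5 probe had -0.12 (adjusted p over probes = 0.592), and their mean gave 0.12 (adjusted p = 0.187). Without fasted replicate 1 the adjusted p of Kcna5 was 0.0581, and without fed replicate 2 it was 0.0554. Kcna2, which joins Kcna1 in axonal channels, had a difference of 0.04 (adjusted p = 0.465), and Kcna4 had -0.02 (adjusted p = 0.745).

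The A-type gene Kcnd1 (Kv4.1) had no settled direction. Its brightest probe read -1.15, -1.20, -1.20 and -1.17 in fasted brains, against -1.11, -0.95, -1.04 and -1.02 in fed brains, a difference of -0.15 ± 0.04 (adjusted p = 0.0307; 0.069 with the replicate block). The second probe read -2.25, -2.22, -2.19 and -2.12 in fasted brains, against -2.64, -2.35, -2.63 and -2.57 in fed brains, a difference of 0.35 ± 0.07 (adjusted p over probes = 0.0122). Both probes separated the groups, in opposite directions, and the mean over the 3 kept probes was 0.02 (adjusted p = 0.851). The call on the brightest Kcnd1 probe held without fed replicate 1 and was lost without any of the other 7 arrays (adjusted p up to 0.0759), with median scaling (0.0698), with normexp (0.0857) and with no filter on dim probes (0.0621). Kcnd2 and Kcnd3, the main A-type subunits of forebrain dendrites, had differences of -0.09 (adjusted p = 0.146) and 0.02 (adjusted p = 0.845).

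Kcnc1, a fast-spiking channel gene, had a difference of 0.05 (adjusted p = 0.656). Kcnq3 and Kcnq5, whose products carry the M-current that damps repeated firing, had differences of 0.07 (adjusted p = 0.628) and 0.06 (adjusted p = 0.405).

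**Figure D4:**
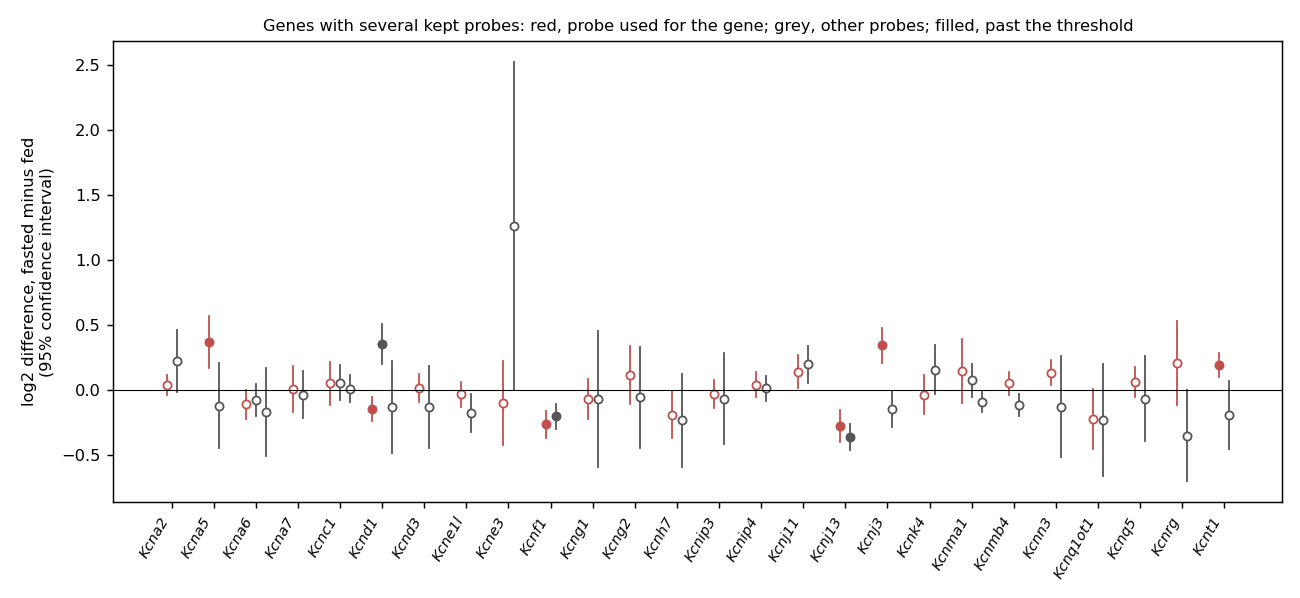
Log2 difference, fasted minus fed, of each kept probe of 26 of the 29 potassium channel genes with more than 1, with 95% confidence intervals. Red marks the probe used for the gene and grey the others, and filled symbols passed the test over all probes. Kcnf1 and Kcnj13 have probes that lie together, while Kcnd1 has filled symbols on both sides of zero.

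Auxiliary subunits had 0 of 10 tested genes past limma's threshold, against 20.5% of all genes, and 3 at an unadjusted p under 0.05, against 35.3% of all genes. They had a median difference of 0.00. Kcne2, a small subunit known from the choroid plexus epithelium, read -1.38, -1.43, -1.29 and -1.17 in fasted brains, against -0.97, -1.27, -1.03 and -0.92 in fed brains. The groups overlapped, and the difference was -0.27 ± 0.09 (adjusted p = 0.0651; 0.0254 with the replicate block). Kcnab1, the oxidoreductase-like beta subunit of Shaker channels, read 2.42, 2.38, 2.55 and 2.38 in fasted brains, against 2.25, 2.36, 2.38 and 2.25 in fed brains. Its groups overlapped at a difference of 0.12 ± 0.05 (adjusted p = 0.125), and Kcnab2 and Kcnab3 had 0.06 (adjusted p = 0.546) and 0.07 (adjusted p = 0.248). Kcnip2, a calcium-binding partner of Kcnd channels, read -1.10, -0.99, -1.04 and -1.03 in fasted brains, against -0.95, -0.84, -1.02 and -0.92 in fed brains. Its difference was -0.11 ± 0.05 (adjusted p = 0.138), and Kcnip1, Kcnip3 and Kcnip4 had differences of 0.03, -0.03 and 0.04 (adjusted p = 0.608, 0.669 and 0.51). The non-coding Kcnq1ot1, an imprinted transcript antisense to Kcnq1, had -0.22 ± 0.10 (adjusted p = 0.153).

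Of the 94 genes 15 were too dim to test, and 12 of these were well above background on no array. They were Kcna10, Kcne1, Kcne4, Kcng3, Kcnh6, Kcnj1, Kcnj14, Kcnj15, Kcnk5, Kcnk7, Kcnk18, Kcnmb1, Kcnn1, Kcnq1 and Kcnv2. Kcng3 was above background on 3 arrays, Kcnj15 on 2 and Kcnk7 on 1.

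Some genes whose products work beside potassium channels also passed. Of 31 listed partners 28 were tested, with 5 higher and 1 lower, where 10.6% of all genes were higher and 9.98% lower. Atp1b2, a glial sodium pump subunit of the pumps that take up potassium released by neurons, had a difference of 0.16 (adjusted p = 0.0106). Abcc9, the sulfonylurea receptor paired with Kcnj8, had 0.26 (adjusted p = 0.0312), beside its partner gene's -0.04. Lgi1, a secreted protein of Kcna1 complexes, had 0.16 (adjusted p = 0.0292), and Nedd4l, a ubiquitin ligase that removes Kcnq channels, had 0.18 (adjusted p = 0.029). Hcn2, a cation channel that opposes leak potassium current at rest, was lower (-0.16, adjusted p = 0.0152). The partners' median difference was 0.02, and Abcc8, which pairs with Kcnj11, had 0.03 (adjusted p = 0.734). Without fasted replicate 1, 3 partners passed.

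Some markers of other cell types and regions also passed. Over all genes 10.6% were higher and 9.98% lower, so 1 call in so short a list does not set it apart. Of 5 oligodendrocyte markers 3 were lower, among them Mag and Cnp, with a summed signal of 79.2 to 83.9 in fasted brains and 88.5 to 95.6 in fed brains. Of 3 tested hippocampal markers 1 was higher (8.42 to 9.38 summed in fasted brains and 6.25 to 7.28 in fed brains). That sum was almost wholly the signal of the 1 marker that passed, the others being dim. Of 3 thalamic markers 2 were higher (5.01 to 5.16 summed in fasted brains and 4.25 to 4.62 in fed brains). Of the remaining lists, 1 of 5 astrocyte markers was lower, 1 of 3 oligodendrocyte precursor markers was higher, 1 of 5 endothelial markers was higher and 1 lower, 1 of 3 ependymal markers was lower, and 1 of 6 hypothalamic markers was higher and 1 lower. By limma 0 of 5 inhibitory neuron and 0 of 4 cerebellar markers passed (0 in both also at an unadjusted p under 0.05, against 35.3% of all genes). The part of any of these in a channel gene's difference was not tested.

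Between the slides, with the group in the model, 119 of 16108 genes differed by limma. Of the 79 potassium channel genes 0 did (9 at an unadjusted p under 0.05, a count that was not made over all genes). At so low a share over all genes, this 0 does not set the channel genes apart. Of the 16 genes that passed, 6 passed under all 19 alternative settings that used arrays of both slides: Kcnh4, Kcnk13, Kcnf1, Kcnk16, Kcnj13 and Kcnj6. The sign was kept in 14 of the 16 under those and within each slide, the exceptions being Kcnt1 and Kcnd1 under the mean of all probes.

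**Figure D5:**
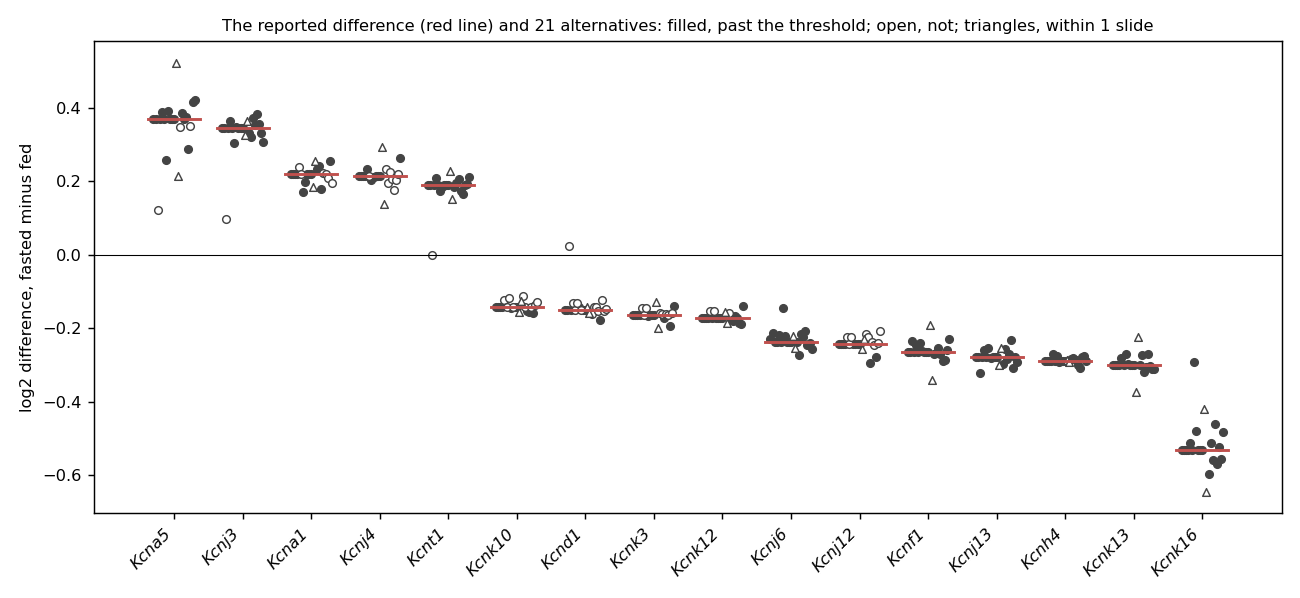
Log2 difference, fasted minus fed, of the 16 genes that passed the test. The red line is the reported value and each symbol 1 alternative, filled where it passed, open where it did not, with triangles for fits within 1 slide. Kcnt1 reaches zero and Kcnd1 crosses it under the mean of all probes, and the rest keep their side.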

How the data were processed

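Brain RNA of 4 fasted and 4 fed samples had been labelled with Cy3 and hybridised to 8 single-colour Agilent arrays, per the labels' protocols. The authors deposited scanner files that with an intensity for every spot, made with Feature Extraction 11.0.1.1 per the file headers, whereas the submitters' processing notes name version 10.10.1.1; both are given as found. The authors' deposited series table, in linear ratio units (signal relative to a constant per probe), served as an alternative. The titles gave group and replicate number.

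The processed signal was taken to log2, each array's 75th percentile was subtracted, outlier-flagged spots were dropped and replicate spots averaged. Of 39429 probes, 26066 were well above background on at least 4 of 8 arrays and were kept. The brightest kept probe stood for each of 16108 genes, and limma 3.58.1 (R 4.3.3; eBayes after lmFit) compared fasted with fed brains, two-sided, with Benjamini-Hochberg adjustment over all genes, or over all kept probes where stated. Array number limits the precision. The limma step was tested on simulated data. Probes were renamed through RefSeq GRCm38.p6 by accession (27427), symbol (3478) or synonym (506), but potassium channel genes keep the array design's symbol. Per-array values were given for genes past the threshold and for up to 3 of each family with the smallest p; other named genes came from a list. The members, families, partner and marker lists were chosen with earlier results of these data known. Some listed genes are not reported by name here, though counts include them.

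Arrays with the same replicate number deviated together from their group means (r = 0.19, 0.31, 0.31 and 0.19 for numbers 1 to 4, over 1 probe a gene). Each pair shared a slide and neighbouring positions, so the numbers were taken to pair the arrays. Arrays of the same slide with other numbers correlated at 0.13, 0.24, -0.01 and 0.12, so number and slide are not clearly separate. A fit with the number as a block was an alternative. Others changed the filter, scaling, background correction, probe rule, variance model and outlier flags, added the slide as a block, used 1 slide, or left out 1 array.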

Additional observations from a re-analysis of the deposited data

Results flagged for a closer look

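Among 102 groups of 4 arrays checked over the named genes, 4 held 1 array set apart from the other 3, where chance alone gives about 1 in 20. The fasted replicate 3 array read -0.15 for Kcnf1, against a mean of -0.11 for the other fasted arrays. For Kcna2, fasted replicate 1 read -0.22, against a mean of -0.15 for the other fasted arrays. For Kcnj11, fed replicate 4 read -1.89, against -1.73 for the other fed arrays, and for Kcnip3 the same array read 3.87, against 3.91.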

How the results depend on the processing

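Of 16 potassium channel genes past the threshold (5 higher, 11 lower), 10 passed with no filter on dim probes (3 higher, 7 lower) and 10 to 16 when 1 array was left out, with 10 without fasted replicate 1. The higher count was 2 with the mean of all probes and 2 to 5 with 1 array left out (2 without fed replicate 2). The lower count was 6 with median scaling, 7 with normexp and 6 to 11 with 1 array left out (6 without fasted replicate 1). Two-pore genes lower in fasted brains numbered 3 with no filter, 2 with median scaling, 2 with normexp and 2 to 6 with 1 array left out. Partners past the threshold numbered 3 with no filter and 3 to 5 with 1 array left out. Over all genes, 2236 to 2964 passed with 1 array left out, against 3310. The lower count over all genes was 1053 with median scaling, 1166 with normexp and 1142 with no filter, against 1608. Within either slide alone (2 against 2 arrays) 0 genes passed by limma, with 24 and 13 channel genes and 4109 and 2688 genes in all at an unadjusted p under 0.05. The two-pore median was -0.12 with normexp, -0.20 within the second slide and -0.17 to -0.14 with 1 array left out. The inward rectifier median was 0.013 with quantile normalization, 0.0083 with normexp, 0.026 and -0.098 within the slides, and -0.11 to 0.014 with 1 array left out. The median of calcium- and sodium-activated genes was -0.017 with the mean of all probes, that of voltage-gated genes 0.011 within the second slide, and that of auxiliary genes 0.034 when probes had to be well above background on all 8 arrays. Kcnt1 (-0.00061) and Kcnd1 (0.024) changed sign with the mean of all probes, since their probes have opposite signs; otherwise the cause of these moves was not tested. With the replicate block, 17 channel genes passed and 3160 genes in all, 14 of the 16 among them. Kcnd1 and Kcnk10 were lost and 3 were gained, Kcne2 and Kcnk9 among them, and no other call on a channel gene changed. Dim probes limit the rest: Kcnn4, Kcnmb3 and Kcnk9 had the largest spread between arrays (pooled SD 0.58, 0.34 and 0.30, against a median of 0.08 over the channel genes).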
